A study of Mus musculus with 6 samples.

Results

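Genes of the complement and coagulation systems were described in primary and metastatic tumours of the ID8-VEGF mouse model of ovarian cancer. A list of 35 genes was set by name, and a gene counted as measured where the array annotation gave a probe set exactly 1 symbol. Of the 35, 33 were measured, out of 30142 genes measured in all. C1s1, a protease of the first complement component, lay on a probe set that carries 2 symbols and was left out, and C3, the central complement protein, was not analysed here. Where a gene had several probe sets, the brightest on average was used.

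Complement is a cascade of plasma proteins in which proteases started by antibody complexes, by sugars on surfaces or by spontaneous turnover form convertases. The convertases cleave C3 and C5, release the anaphylatoxins C3a and C5a, and lead to a membrane pore, while host cells carry inhibitors that stop these steps. Coagulation is a related protease cascade, started by tissue factor, held back by anticoagulants and undone by plasmin, and much of the plasma pool of both systems is made in the liver. In tumours, fibroblasts, macrophages and endothelial cells also make or carry several of these proteins.

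ID8 cells come from the surface epithelium of the mouse ovary, and the ID8-VEGF form also makes added vascular endothelial growth factor. All 3 mice, named C1M3, C1M5 and C2M3, had received these cells beneath the ovarian bursa, the membrane around the ovary. Each gave 1 late primary tumour and 1 late metastatic tumour, so that both groups carry the same cells and differ by the labelled tissue. The mouse strain and age, the site of each metastatic tumour, and whether these mice had been operated on are not in the labels used here, and the primary tumour of C2M3 has the source name C2M2 although its title and donor label say C2M3. Each tumour was 1 array of total RNA from frozen tumour tissue, and the animals are separate, so the number of arrays, 3 per group, limits the precision. In such bulk RNA, fewer cells of a type and less RNA per cell cannot be told apart.

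Values are log2 intensities as deposited, where a difference of 1 is a doubling. Differences are metastatic minus primary, the mean over the 3 mice with the moderated standard error (SE) from limma, with the mouse as a block, two-sided, adjusted by the Benjamini-Hochberg method over 30142 genes. The threshold was an adjusted p of 0.05. Where 1 array was left out, the mouse was not a block, so the difference is between group means of the arrays kept. Such a value also takes in differences in level between mice. Of the 33 genes measured, 24 had a mean over the 6 arrays above 5.04, the median of all genes tested, and are called the brighter genes here. The 3 values of a group are always given in the order C1M3, C1M5, C2M3. Levels of different genes are not set against each other, since probe sets differ in how well they bind.

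No complement or coagulation gene differed between metastatic and primary tumours past the threshold by limma, and the smallest adjusted p among them was 0.841. Over all genes tested 0 of 30142 passed, or 0%. At an unadjusted p under 0.05, limma took 1485 of all genes, or 4.93%, and 0 of the 33. Without the mouse as a block the adjusted count was also 0, with 1269 of all genes and 0 of the 33 at an unadjusted p under 0.05. For 15 of the 33 the metastatic mean was higher and for 18 it was lower, beside 55.1% higher over all genes tested. The median of the differences was -0.028, beside 0.016 over all genes tested. Of the 24 brighter genes 9 were higher and 15 lower, beside 8281 higher and 6790 lower of all genes above the median level. Centring each array on its median, which shifts the median difference of all genes by -0.106, turned the split to 7 higher and 26 lower. After centring, 30.4% of all genes tested were higher, so most genes were lower there too.

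Few of the 33 genes differed one way in every mouse. Cd59a was the 1 gene higher in the metastatic tumour of all 3 mice, where 11.1% of all genes tested were. Masp1 and F3 were the 2 genes lower in all 3, where 8.64% of all genes tested were. None had groups that did not overlap, neither with metastatic tumours above all primary tumours, which held for 4.79% of all genes, nor below them, which held for 2.84%. More common was a difference between mice. Of the 33 genes, 12 were higher in the metastatic tumour of C1M3 and lower in those of C1M5 and C2M3, where 8.35% of all genes tested were. All 12 were among the 24 brighter genes.

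**Figure D1:**
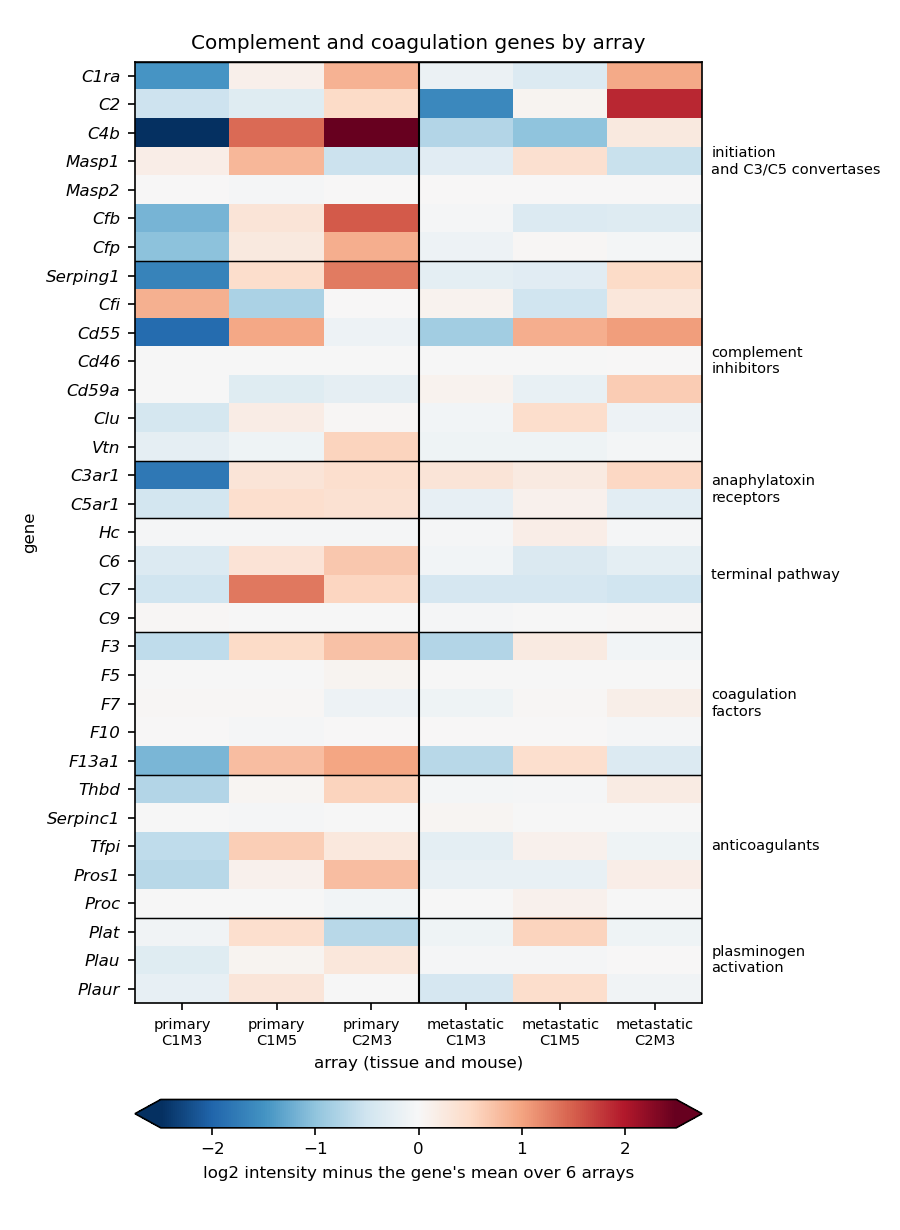
Heat map of the 33 genes measured (rows, grouped by role) over the 6 arrays (columns, 3 primary and 3 metastatic tumours), coloured by log2 intensity minus the gene's mean over the arrays. The first column, the primary tumour of C1M3, is mostly blue (low) and the third, the primary tumour of C2M3, mostly red (high), while 9 rows are nearly white; the colour scale is capped, and C4b in those 2 tumours lies beyond it.

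Genes that start complement and build the convertases gave the widest spread. C4b, the mouse C4 that supplies the C4b part of the classical and lectin convertase, had log2 intensities of 7.53, 11.67 and 13.07 in primary tumours and of 9.52, 9.26 and 10.50 in metastatic tumours. The primary tumours held both the lowest and the highest value, and the groups overlapped. The difference for C4b was 1.99 in C1M3, -2.41 in C1M5 and -2.57 in C2M3. The mean difference of -0.998 had an SE of 1.21 and a 95% interval from -4.82 to 2.83 (limma, adjusted p 0.858). Leaving out 1 primary tumour, without the mouse as a block, gave 0.16 (C2M3 out) or -2.61 (C1M3 out). With both tumours of a mouse left out, the paired difference was -2.49 (C1M3 out), -0.29 (C1M5 out) and -0.21 (C2M3 out). C4a, a near-identical copy whose signal the probes may share, had 6.06, 8.59 and 9.27 in primary and 7.16, 7.02 and 7.70 in metastatic tumours, the same order of mice.

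Cfb, factor B, the protease part of the alternative convertase, went the same way. Its log2 intensities were 5.68, 7.19 and 8.39 in primary tumours and 6.82, 6.52 and 6.53 in the metastatic ones. The metastatic tumours spanned a range of 0.29, inside the range of the primary tumours, and the mean difference was -0.46 with an SE of 0.71. Cfp, properdin, which stabilises that convertase, had 5.92, 7.19 and 7.85 in primary and 6.81, 6.97 and 6.89 in metastatic tumours. Again the 3 metastatic tumours sat close together between the extremes of the primary ones. C1ra, a C1 protease with a near-identical neighbour in C1rb, was 1.32 higher in the metastatic tumour of C1M3, 0.47 lower in that of C1M5 and 0.09 higher in that of C2M3.

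C2, the protease part of the classical convertase, went the other way. It had log2 intensities of 8.44, 8.66 and 9.43 in primary tumours and 7.34, 9.02 and 10.83 in metastatic ones. Here the metastatic tumours held both extremes, and the differences within C1M3, C1M5 and C2M3 were -1.09, 0.37 and 1.40. A second probe set of C2 was dim on every array, between 3.52 and 3.79, and is not used.

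Masp1, a protease of the lectin pathway, had log2 intensities of 7.33, 7.99 and 6.64 in primary tumours and of 6.88, 7.56 and 6.60 in the metastatic ones. The groups overlapped, but each metastatic tumour lay below the primary tumour of its own mouse, by 0.45, 0.43 and 0.03. The mean difference was -0.31 with an SE of 0.12 (limma, unadjusted p 0.083, adjusted p 0.841). It stayed below 0 in each mouse after centring, where the mean was -0.41. As deposited and without the mouse as a block, it was 0.03 without the primary tumour of C1M5 and -0.65 with that of C2M3 left out. With both tumours of a mouse left out, the paired difference stayed below 0, at -0.234 (C1M3 out), -0.245 (C1M5 out) and -0.444 (C2M3 out). Masp2, the other protease of that pathway, kept a range of 0.04 over the 6 arrays.

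Inhibitors of complement fell into those that followed C4b and those that did not. Serping1, the C1 inhibitor, had log2 intensities of 8.25, 10.37 and 11.23 in primary tumours and of 9.68, 9.64 and 10.41 in metastatic tumours. The primary tumour of C1M3 was the lowest array and that of C2M3 the highest, and the differences within mice were 1.42, -0.73 and -0.82. Their mean was -0.04 with an SE of 0.60. Cfi, factor I, which cleaves C3b and C4b, had the opposite signs, with -0.78, 0.30 and 0.28 within C1M3, C1M5 and C2M3.

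Cd55, decay-accelerating factor, a membrane protein that takes convertases apart, had the largest positive mean difference of the 33 genes. Its log2 intensities were 7.88, 10.75 and 9.66 in primary tumours and 8.93, 10.71 and 10.83 in metastatic ones. Both tumours of C1M3 were the lowest of their group, and the groups overlapped. The difference was 1.05 in C1M3, -0.05 in C1M5 and 1.17 in C2M3, a mean of 0.73 with an SE of 0.32 (limma, adjusted p 0.841). Leaving out 1 array at a time, without the mouse as a block, gave from -0.05 (primary tumour of C1M3 out) to 1.39 (primary tumour of C1M5 out). With both tumours of a mouse left out, the paired difference was 0.563 (C1M3 out), 1.113 (C1M5 out) and 0.504 (C2M3 out). The neighbouring copy Cd55b, whose signal may not be fully separated from that of Cd55, had a mean difference of 0.58 (limma, unadjusted p 0.037, adjusted p 0.841).

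Cd59a, a membrane protein that blocks the complement pore, had log2 intensities of 10.13, 9.84 and 9.92 in primary tumours and of 10.24, 9.96 and 10.79 in the metastatic ones. It was higher in each metastatic tumour than in the primary tumour of its mouse, by 0.11, 0.12 and 0.87. The groups overlapped, and most of the mean difference of 0.37 (SE 0.21, limma, adjusted p 0.841) lies in C2M3. Without the metastatic tumour of C2M3 it was 0.14, and with centred arrays the difference in C1M5 was -0.065, so the shared sign is lost there. Cd59b, a related gene, had a mean difference of 0.17, from -0.685, 0.252 and 0.945 within C1M3, C1M5 and C2M3.

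The other inhibitors differed little. Clu, clusterin, which binds the terminal complex, had log2 intensities from 12.82 to 13.70 over the 6 arrays, with a mean difference of 0.16. Vtn, vitronectin, was 5.26 in the primary tumour of C2M3 and between 4.48 and 4.66 elsewhere. Cd46, which in mice is largely a protein of sperm, kept between 5.31 and 5.33.

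Of the receptors for the anaphylatoxins, C3ar1, the C3a receptor, had log2 intensities of 5.71, 7.82 and 7.92 in primary tumours and of 7.82, 7.72 and 8.02 in the metastatic ones. The primary tumour of C1M3 stood at least 2.01 below the other 5 arrays, which spanned 0.295. The mean difference of 0.70 (SE 0.58, limma, adjusted p 0.841) came from C1M3, at 2.11, beside -0.10 in C1M5 and 0.10 in C2M3, and it was -0.02 without that primary tumour and 1.09 with the primary tumour of C2M3 left out. C5ar1, the C5a receptor, was lowest in the primary tumour of C1M3 (5.29) and highest in that of C1M5 (6.16), and its mean difference was -0.24.

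In the terminal pathway, C7, which anchors the growing pore in the membrane, had log2 intensities of 4.64, 6.47 and 5.69 in primary tumours and of 4.73, 4.72 and 4.65 in the metastatic ones. Primary tumours of C1M5 and C2M3 were above the 4 other arrays, which spanned 0.083. Those 4 arrays lay under 5.04, so C7 counts among the brighter genes only through the primary tumours of C1M5 and C2M3. The mean difference was -0.90 with an SE of 0.44 (limma, adjusted p 0.841), from 0.08, -1.75 and -1.04 within the mice. It was -0.47 with the primary tumour of C1M5 left out and -1.38 with that of C1M3 left out. C6, its neighbour in the pore, was likewise higher in the primary tumours of C1M5 and C2M3, at 5.75 and 6.09, than on the other arrays, which lay between 5.06 and 5.35. Hc, the mouse C5, and C9, which lines the pore, kept ranges of 0.20 and 0.04.

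Promoters were read to show sequence for genes of the report, from the RefSeq table of the mouse build GRCm38.p6, as the 250 bases before each start. The table held 22 of the 33 genes and 17970 genes in all. The letters TTCNNNGAA, the core that STAT factors bind, were found on either strand in Masp2, C7 and Pros1, 13.6% of the 22, beside 7.82% of all promoters. GAAANNGAA, the core of interferon response elements, was found in Cd59a and C5ar1, 9.09% beside 7.95%. The promoters of C7 and Cd59a are printed because these 2 hold such letters and also met the rule for genes described array by array. Capitals mark the match, 164 to 156 bases before the start of C7 (chr15:5063774-5064023, minus strand) and 187 to 179 before that of Cd59a (chr2:104095551-104095800, plus strand).
C7: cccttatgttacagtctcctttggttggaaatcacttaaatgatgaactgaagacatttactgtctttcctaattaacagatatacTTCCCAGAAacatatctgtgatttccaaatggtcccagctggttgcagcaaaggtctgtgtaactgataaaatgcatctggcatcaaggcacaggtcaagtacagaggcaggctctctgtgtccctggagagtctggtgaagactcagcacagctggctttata
Cd59a: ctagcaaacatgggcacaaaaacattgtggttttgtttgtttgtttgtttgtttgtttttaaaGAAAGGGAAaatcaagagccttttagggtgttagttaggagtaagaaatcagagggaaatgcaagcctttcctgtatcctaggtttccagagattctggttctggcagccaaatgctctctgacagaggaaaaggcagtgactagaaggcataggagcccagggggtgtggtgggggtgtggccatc
A match is a string of letters in the reference, and no binding was measured here.

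Among coagulation factors, F3, tissue factor, which starts the extrinsic pathway, had log2 intensities of 7.17, 8.29 and 8.55 in primary tumours and of 7.07, 8.04 and 7.73 in the metastatic ones. Each metastatic tumour was below the primary tumour of its mouse, by 0.11, 0.25 and 0.82, while the groups overlapped. The mean difference was -0.39 with an SE of 0.18 (limma, adjusted p 0.841), and with centred arrays the difference in C1M3 was 0.010, so that 1 sign is lost. Leaving out either the primary tumour of C2M3 or the metastatic tumour of C1M3 gave -0.12, and leaving out the primary tumour of C1M3 gave -0.81. F13a1, the factor XIII chain that crosslinks fibrin and is also made by macrophages, had 5.59, 7.50 and 7.72 in primary and 6.04, 7.16 and 6.39 in metastatic tumours. The differences within C1M3, C1M5 and C2M3 were 0.45, -0.34 and -1.33. F5, F7 and F10, made mainly by the liver, were flat.

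The anticoagulants Thbd, thrombomodulin on endothelium, Tfpi, the inhibitor of tissue factor, and Pros1, protein S, shared a pattern. Each was lowest in the primary tumour of C1M3, at 5.44, 5.18 and 4.89. Thbd and Pros1 were highest in the primary tumour of C2M3, at 6.73 and 6.36, and Tfpi in that of C1M5, at 6.44. All 3 were higher in the metastatic tumour of C1M3 than in its primary tumour, by 0.68, 0.38 and 0.52, and lower in those of the other mice, with mean differences of 0.09, -0.17 and -0.13. Serpinc1, antithrombin, and Proc, protein C, both liver products, were flat.

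Of the plasminogen system, Plat, tissue plasminogen activator, had log2 intensities of 9.36, 9.87 and 8.77 in primary tumours and of 9.36, 10.02 and 9.36 in metastatic ones, a mean difference of 0.25 with an SE of 0.15. Plau, urokinase, ranged from 5.26 to 5.86, and its receptor Plaur from 6.71 to 7.58. Their mean differences were -0.04 and -0.05. For Plaur and Plat the order of arrays followed the mouse more than the tissue, both tumours of C1M5 being the highest.

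**Figure D2:**
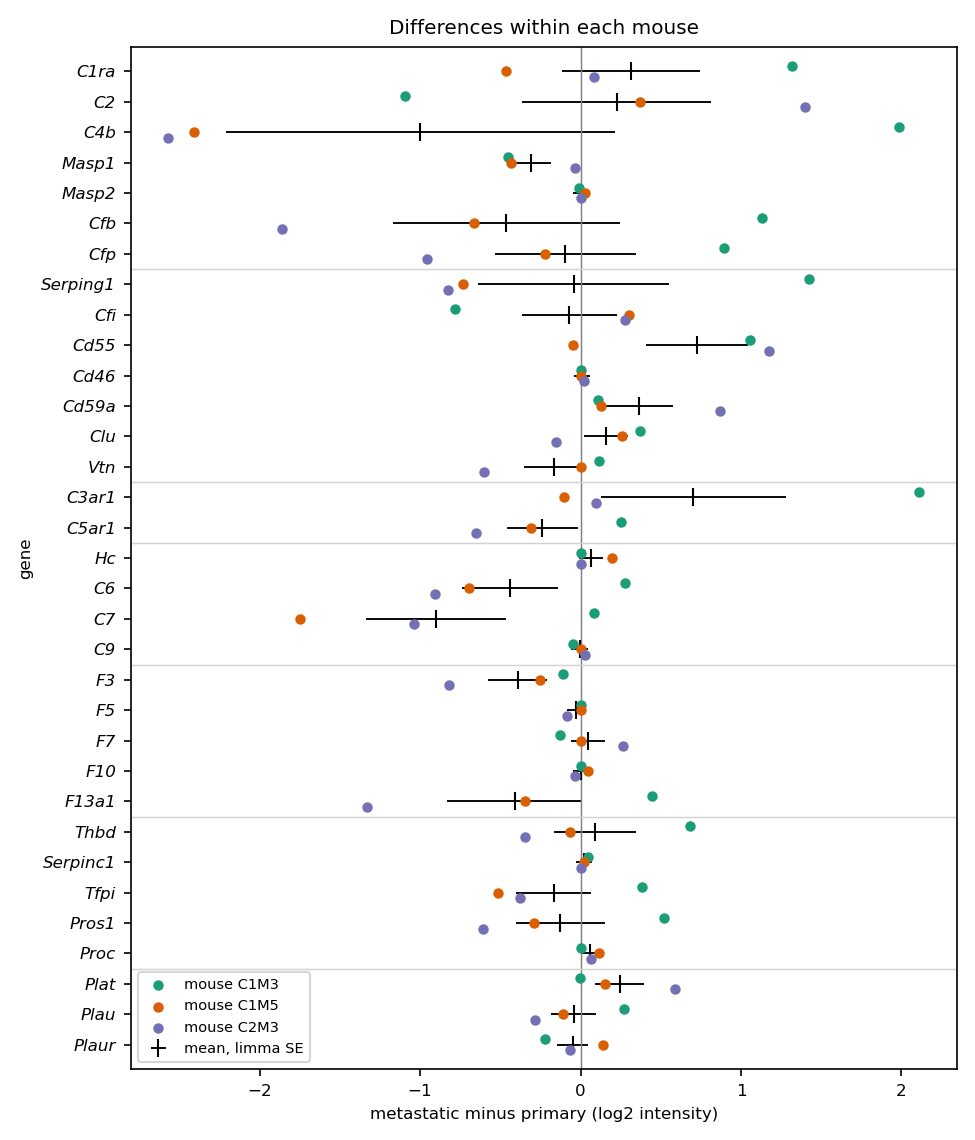
Difference between the metastatic and the primary tumour (log2 intensity, x axis) for each of the 33 genes (y axis, grouped by role). Points are the 3 mice, and the black mark and bar are the mean and limma's SE; for C4b the point of C1M3 is at 1.99 and those of C1M5 and C2M3 are at -2.41 and -2.57.

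The 9 flat genes, with ranges under 0.5 over the 6 arrays, were Masp2, Cd46, Hc, C9, F5, F7, F10, Serpinc1 and Proc, and their values lay between 3.74 and 5.33. For comparison, 1717 olfactory and vomeronasal receptor genes, which should be silent in these tissues, had array medians from 3.91 to 4.35. In primary tumours these medians were 4.349, 3.992 and 3.915, and in metastatic tumours 4.014, 4.163 and 4.295. They were thus highest in the primary tumour of C1M3 and lowest in that of C2M3. Of the 33 genes, 10 held exactly the same value on at least 3 arrays. Differences of these 9 genes are not read here.

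The pattern by mouse was counted over the 24 brighter genes. In 15 of them, or 62.5%, the difference in C1M3 had the opposite sign to that in both other mice, as it had in 35.2% of all genes above the median level. For 12, or 50%, the metastatic tumour was higher in C1M3 and lower in C1M5 and C2M3, which held for 13.4% of all such genes. The 3 with the reverse signs were C2, Cfi and Plat. The median difference of the 24 was 0.323 in C1M3, -0.235 in C1M5 and -0.315 in C2M3, beside 0.000, 0.000 and 0.027 over all genes above the median level.

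The extremes lay mostly in the primary tumours. The primary tumour of C1M3 was the lowest of the 6 arrays for 15 of the 24 genes, or 62.5%, beside 23.4% of all genes above the median level. That of C2M3 was the highest for 10, or 41.7%, beside 12.6%. For 20 of the 24, or 83.3%, the SD over the 3 primary tumours exceeded that over the 3 metastatic tumours, which held for 63.3% of all such genes. The median SD of the 24 was 0.704 in primary and 0.347 in metastatic tumours, against 0.251 and 0.180 over all genes above the median level. With both tumours of C1M3 left out, the SD was larger in primary tumours for 14 of the 24, beside 48.5% of all. After centring, the opposite sign in C1M3 was found in 18 of the 24, but also in 53.7% of all genes above the median level. Receptor genes that should be silent went the other way: 36.6% were highest in the primary tumour of C1M3, beside 28.9% of all genes tested. In the primary tumour of C2M3, 41.6% of them were lowest, beside 26.4%. Whether such shifts between arrays bear on the 24 genes was not tested. These counts are descriptions of 6 arrays, and no test was made on them.

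**Figure D3:**
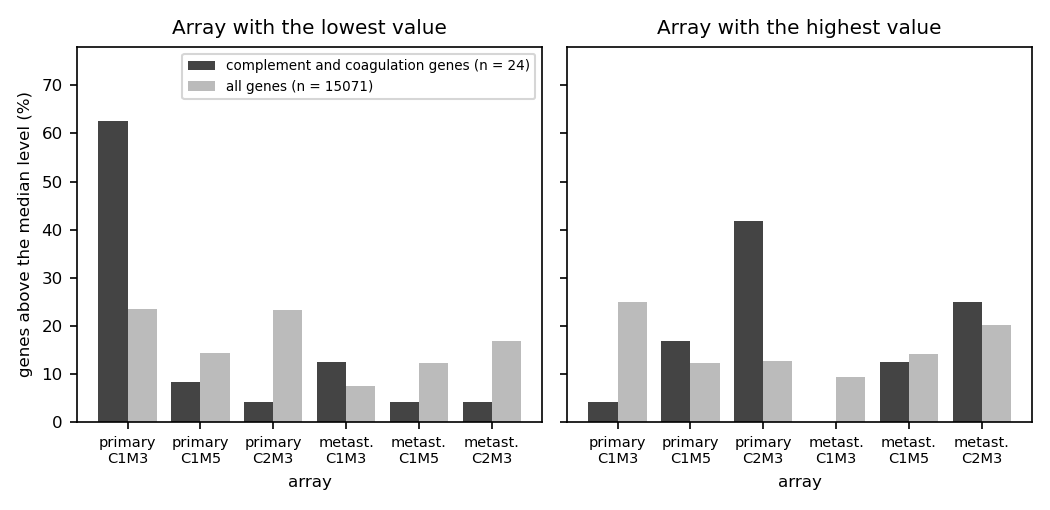
Share of genes above the median level (y axis, percent) whose lowest value (left panel) or highest value (right panel) fell on each of the 6 arrays (x axis), for the 24 brighter complement and coagulation genes (dark bars) and all genes above the median level (light bars). The dark bar stands at 62.5% for the lowest value in the primary tumour of C1M3, where the light bar stands at 23.4%, and at 41.7% for the highest value in the primary tumour of C2M3, where the light bar stands at 12.6%.

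**Figure D4:**
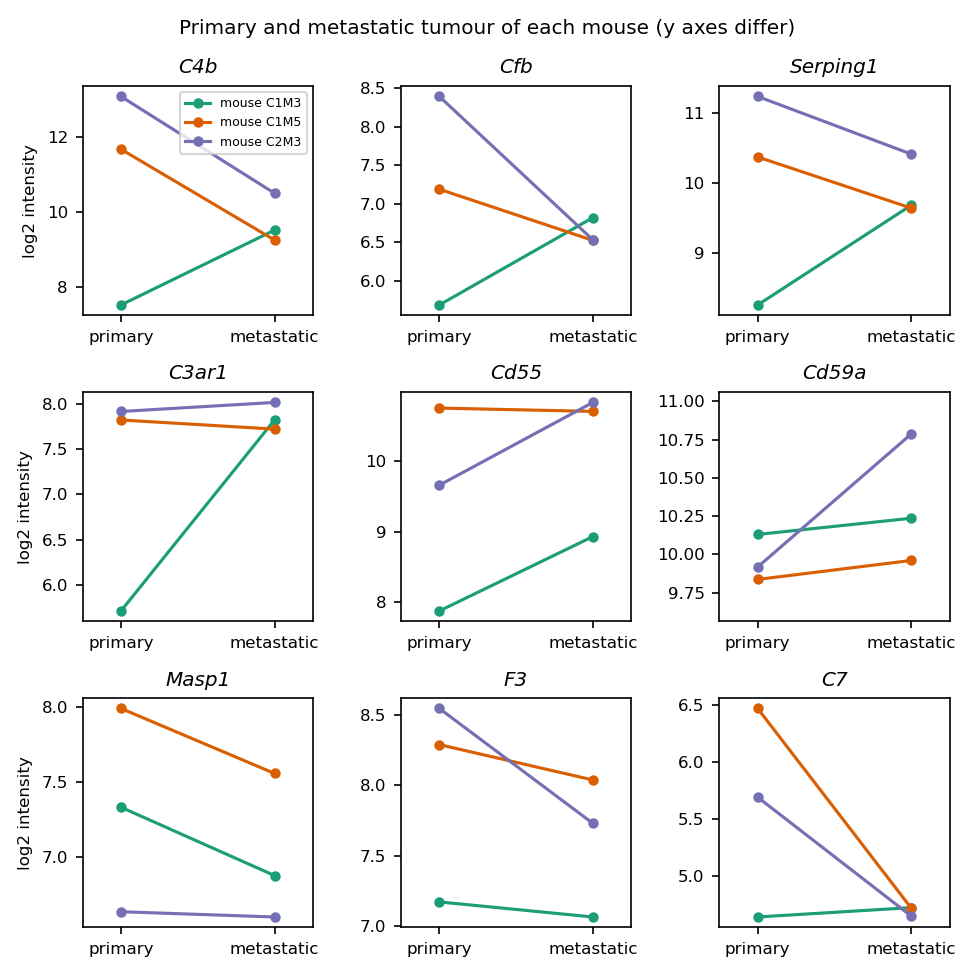
Log2 intensity (y axis, a separate scale in each panel) in the primary and metastatic tumour of each mouse for 9 genes, with a line for each mouse. For C4b, Cfb and Serping1 the metastatic point is above the primary one in C1M3 and below it in the other mice, whereas it is above in all 3 for Cd59a and below in all 3 for Masp1 and F3.

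Markers of other cell types moved with the same arrays only in part. Like the 24 brighter genes, the lists of macrophage, fibroblast, mesothelial, platelet and hepatocyte markers had their lowest mean in the primary tumour of C1M3. For hepatocyte markers the gap was small, 4.777 there beside 4.790 in the metastatic tumour of C2M3. The adipocyte and endothelial lists had theirs in metastatic tumours, as did the keratins with Wt1 and the granulosa and theca cell list. The neutrophil list had its lowest mean in the primary tumour of C1M5. The mean log2 intensity of 8 of 8 macrophage markers was 6.08, 7.86 and 8.18 in primary tumours and 7.47, 7.79 and 8.19 in the metastatic ones, and all 8 were lowest in the primary tumour of C1M3. Of the fibroblast list 5 of 6 were measured, with means of 7.16, 10.14 and 11.54 in primary and 8.74, 8.79 and 9.84 in metastatic tumours. For the adipocyte list, 6 of 6, the means were 5.70, 9.27 and 11.63 in primary and 5.87, 5.84 and 5.37 in metastatic tumours. So the primary tumours of C1M5 and C2M3 held far more adipocyte transcripts than the 4 other arrays, with Adipoq at 10.59 and 13.21 there and between 5.75 and 6.09 elsewhere. Endothelial markers, 5 of 6, had means of 6.47, 7.42 and 8.95 in primary and of 7.77, 6.09 and 7.39 in metastatic tumours, and all 5 were higher in the metastatic tumour of C1M3 and lower in the other 2. The part of these cell types in the complement and coagulation values was not tested.

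Liver cells and blood cells were examined because many of the genes are liver products or act on platelets. Of the hepatocyte list 6 of 7 were measured, and 5 were dim on every array, with Alb between 4.29 and 4.42 and Ttr between 4.16 and 4.26. The exception was Ahsg, fetuin A, between 7.29 and 11.44, which was highest in both tumours of C1M5. The platelet list had 4 of 5 measured, with means of 5.54, 6.21 and 7.02 in primary and 6.03, 6.57 and 6.09 in metastatic tumours, and its defining Itga2b kept between 5.19 and 5.34. Neutrophil means, over 6 of 6, lay between 4.81 and 5.20. The keratins and Wt1, markers of ovarian surface epithelium, had means of 11.18, 12.30 and 11.09 in primary and 10.97, 12.27 and 10.69 in metastatic tumours, both tumours of C1M5 being the highest. Mesothelial markers, 5 of 5, had means of 9.44, 11.62 and 10.58 in primary and 9.63, 11.90 and 10.87 in metastatic tumours. They too were highest in both tumours of C1M5, but C2M3 stood above C1M3. The 6 granulosa and theca cell markers had means between 5.93 and 7.35.

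**Figure D5:**
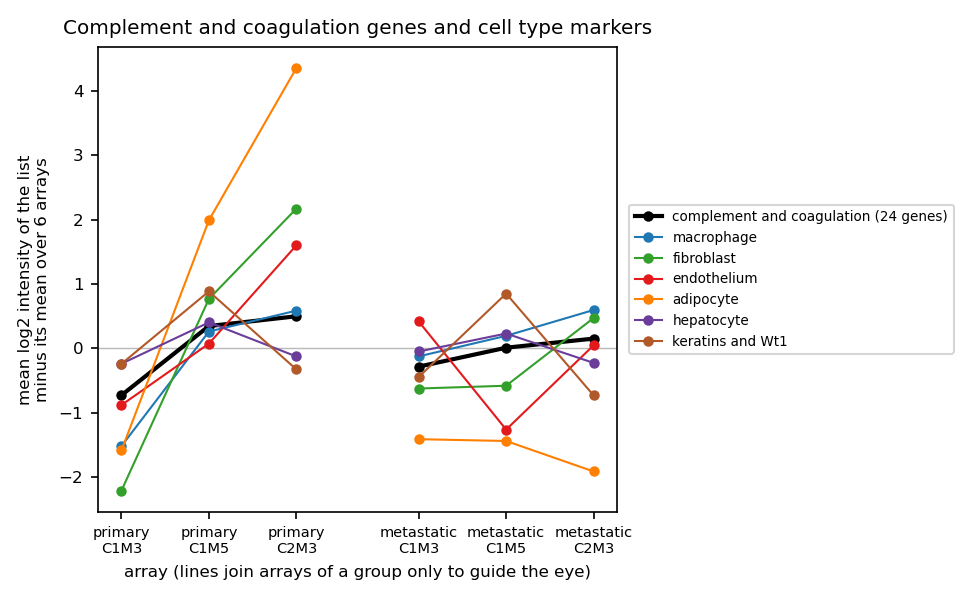
Mean log2 intensity of each gene list minus that list's mean over the 6 arrays (y axis), by array (x axis, primary tumours left and metastatic tumours right), for the 24 brighter complement and coagulation genes (black) and 6 marker lists (colours). The black line is lowest in the primary tumour of C1M3, as are the macrophage and fibroblast lists and, by a small gap, the hepatocyte list. The adipocyte list is high only in the primary tumours of C1M5 and C2M3.

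Genes of the same pathways outside the 35 were counted from lists that also include receptors, lectins and cofactors. Of 30 other complement genes 27 were measured, 23 (85.2%) with a higher metastatic mean and 4 with a lower one, beside 55.1% higher over all genes tested. The median of their differences was 0.171, beside 0.016. With centred arrays 15 (55.6%) were higher, beside 30.4% of all genes, and the median was 0.065, beside -0.090. By limma none passed the threshold, and 1 of the 27 (3.7%), Cd55b, had an unadjusted p under 0.05, beside 4.93% of all genes. The largest difference belonged to C1qb, a chain of the C1q recognition protein made by macrophages, with 6.42, 9.58 and 10.35 in primary and 9.33, 9.35 and 10.15 in metastatic tumours. The primary tumour of C1M3 was at least 2.91 below the other 5 arrays, the same array that stood apart for C3ar1. C1qa, Itgax, the chain of an integrin that binds cleaved C3, and Cd93, a surface protein of endothelium and myeloid cells, had mean differences of 0.76, 0.76 and 0.69.

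Of 35 other coagulation and fibrinolysis genes 30 were measured, 25 (83.3%) with a higher metastatic mean and 5 with a lower one, beside 55.1% higher over all genes, and the median was 0.047, beside 0.016. Centring turned this direction, with 9 (30%) higher and 21 lower, beside 30.4% higher over all genes, and a median of -0.059. By limma none passed the threshold and 0 had an unadjusted p under 0.05. Among those above the median level the largest absolute differences were 0.50 for F2rl2, a thrombin receptor of the PAR family, then Ggcx, the carboxylase that vitamin K-dependent factors need, and Mcfd2 with 0.27 each, and Lman1 with 0.19. Mcfd2 and Lman1 together carry factors V and VIII out of the endoplasmic reticulum. The fibrinogen chains Fga, Fgb and Fgg, prothrombin (F2) and plasminogen (Plg), chosen here after their values were seen, lay between 3.78 and 4.51 on every array, near the level of the receptors that should be silent.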

How the data were processed

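Total RNA of 6 tumours was hybridised to Affymetrix mouse whole-transcriptome arrays, 1 per tumour. The deposited values are log2 intensities per probe set. Per the submitters' processing notes the authors used RMA in Transcriptome Analysis Console, versions not given; RMA subtracts background and forces the arrays to 1 distribution, which can hide global shifts. Of 65956 non-control probe sets, 30604 carried 1 symbol in the platform annotation, 2146 several and 33206 none. Symbols of 827 were updated by Entrez identifier through RefSeq (GRCm38.p6); 30142 genes remained, with no filter on dim genes. The array's genome build is not given in the sources used here.

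Groups follow the tissue label and pairs the donor label. Deviations of the 2 tumours of a mouse correlated at -0.05 (C1M3), 0.35 (C1M5) and 0.07 (C2M3); across mice the best match reached 0.13, -0.02 and 0.09, so C1M3 and C2M3 did not correlate best with their own. The fit was limma 3.58.1 in R 4.3.3, tissue plus mouse, tested on simulated data. With 3 pairs an exact sign permutation test cannot go below 0.25, so none is used. Alternatives were centring, the dim-gene filter, no block, array weights, a trended robust prior, the mean of probe sets and leaving out mice or arrays. The fits with 1 array left out had no block. Genes with 6 values named are those above the median level with 1 sign in all mice or a mean difference of at least 0.5; others are examples. The members and lists were chosen with earlier results of these data known.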

Additional observations from a re-analysis of the deposited data

How the results depend on the processing

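No complement or coagulation gene passed the threshold in any of the 15 alternatives by limma, and no gene of all those tested did. The fit without the mouse as a block left every mean difference as it was and called 0. The count of genes with a higher mean was 15 and became 7 with centred arrays, where 30.4% of all genes tested were higher. It was 9 over the brighter genes, of which there are 24. With centring the median difference went from -0.028 to -0.133, beside 0.016 to -0.090 over all genes tested. Leaving out a mouse or an array gave median differences from -0.165 (without the primary tumour of C1M3) to 0.035 (without mouse C2M3). Genes with 1 sign in all mice numbered 3, and 5 to 19 with 1 mouse left out, where fewer mice need to match: 19 without C1M3, 7 without C1M5 and 5 without C2M3. Without C1M3, 14 of these were lower in metastatic tumours and 5 higher, beside 18.5% and 37.1% of all genes. Mean differences changed sign for 8 of the 33 with centring, 5 with array weights, 4 to 10 without a mouse and 3 to 10 without an array. With centring these were flat genes except for Thbd. At an unadjusted p under 0.05 the count was 0, but 6 without C1M3 (C4b, Serping1, Cfi, C6, C7 and Tfpi), where 14.8% of all genes passed, 5 without its primary tumour, where 9.11% did, 3 with array weights, where 17.5% did, and 1 of 33 with centring (Masp1), without C1M5 (Cd55) and without C2M3 (Masp1), where 5.27%, 3.05% and 2.87% did. The cause was not tested. The flat genes other than Cd46 were dim, under 5.04 on every array, and whether low signal limits their ranges was not tested. At 5.31 to 5.33, Cd46 lay just above the median level and counts among the brighter genes.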

Other observations

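The 3 metastatic tumours were close together for several genes that spread widely over the primary tumours. For C7 the SD over metastatic tumours was 0.042, beside 0.916 over primary tumours, and for Cfp it was 0.079 beside 0.980. The metastatic values of C7, from 4.65 to 4.73, lay under 5.04, the median level. Whether low signal limits its spread there was not tested. For Plau, the SD was 0.021 beside 0.300. Of the 24 brighter genes, C2, Cd46, Cd59a and Plaur had the larger SD in metastatic tumours, with 1.742 beside 0.522 for C2. Of the other complement genes, Colec12, a scavenger lectin, was 6.57 in all 3 metastatic tumours. In the primary tumours of C1M3, C1M5 and C2M3 it was 5.45, 7.31 and 8.26. It was chosen after its values were seen. Equal values also occur across the groups, as for Cd68 at 9.81 in both tumours of C1M5, so such ties are not particular to metastatic tumours.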
